A study of Mus musculus with 2 samples.

Results

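8 genes that mark or build Schwann cells, the glia that wrap the axons of peripheral nerves, were followed in the accessible chromatin of mouse calf muscle: Sox10, Egr2, Erbb3, Prx, Pmp22, Mbp, Cdh19 and S100b. They are 8 of 21938 protein-coding genes of the annotation. A peak was taken as theirs when any base of it lay within 50 kb of any of their annotated transcript starts, and a footprint when it lay inside such a peak. That gave 99 of 94295 peaks in replicate 1 and 117 of 123291 peaks in replicate 2, or 108 ± 12.7 (SD, n = 2). The rule uses no value of these libraries other than the position of the peaks.

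The assay was DNase-seq: the enzyme DNase I cuts DNA where nucleosomes leave it exposed, and the cut ends are sequenced. Nuclei came from whole gastrocnemius of male B6CASTF1/J mice, the hybrid offspring of C57BL/6J and CAST/EiJ, 4 days after birth. The 2 libraries are biological replicates 1 and 2 of a single group, each with a label that names 3 males, under the same donor entry. No treatment, mutant allele, second age or sorted cell population is in the design, so no contrast was tested and each value is given per library.

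Schwann cells arise from the neural crest and need neuregulin from the axon, which they read through the receptor pair ErbB2 and ErbB3. Sox10 is kept on through the whole lineage, and in cells that have paired with an axon it acts together with Oct6 (Pou3f1) and then Egr2 to switch on the myelin genes, a programme that runs in mouse nerves in the first days and weeks after birth. In a muscle these cells lie in the intramuscular nerve branches and over the neuromuscular junctions, beside a far larger mass of muscle fibres.

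For that reason the level of a peak in whole muscle mixes the share of nuclei that carry it with how open the site is in each of them. Fewer cells of a type and less accessible DNA per cell cannot be told apart here. Several of the 8 genes are also used outside Schwann cells: Sox10 and Mbp by oligodendrocytes, Prx by endothelium, Pmp22 by fibroblasts and epithelia, Egr2 as an immediate early gene in many cells, and S100b in several cell types including cartilage.

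4 of the members' accessible regions that the results return to are given here by their sequence, so that each result can be set beside it. They are the strongest promoter regions of Prx, Egr2 and S100b, and the strongest shared region upstream of Sox10. All are from the plus strand of RefSeq's GRCm38.p6 genome (mm10), written 5′ to 3′. Capitals mark the bases that lay inside a footprint, a short stretch protected from cutting, in both libraries.
Prx promoter, chr7:27508101-27508320: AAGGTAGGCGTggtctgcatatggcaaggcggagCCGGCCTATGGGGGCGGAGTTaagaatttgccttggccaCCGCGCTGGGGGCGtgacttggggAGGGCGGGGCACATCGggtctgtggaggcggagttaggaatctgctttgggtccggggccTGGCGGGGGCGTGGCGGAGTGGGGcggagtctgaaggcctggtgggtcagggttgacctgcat
Egr2 promoter, chr10:67537661-67537860: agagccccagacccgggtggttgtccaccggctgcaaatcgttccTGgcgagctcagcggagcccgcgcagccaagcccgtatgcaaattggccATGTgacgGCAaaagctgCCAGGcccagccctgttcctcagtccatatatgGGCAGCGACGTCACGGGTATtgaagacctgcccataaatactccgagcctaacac
S100b promoter, chr10:76253701-76253852: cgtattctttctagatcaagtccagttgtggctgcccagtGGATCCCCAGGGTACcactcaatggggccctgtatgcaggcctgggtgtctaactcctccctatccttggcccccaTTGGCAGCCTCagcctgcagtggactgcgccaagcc
Sox10 upstream, chr15:79193161-79193360: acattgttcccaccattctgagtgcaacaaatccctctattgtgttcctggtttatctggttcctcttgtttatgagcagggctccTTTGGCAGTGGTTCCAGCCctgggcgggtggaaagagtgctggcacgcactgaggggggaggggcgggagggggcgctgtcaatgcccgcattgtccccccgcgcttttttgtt
The footprinted share differed among them. In the Prx promoter 86 of 220 bases were protected in both libraries. In the Egr2 promoter the number was 34 of 200, and upstream of Sox10 only 19 of 200. The S100b stretch, with 26 of 152, was cut before the first exon base and so covers only part of its peak, unlike the other 3. The density of DNase I cuts differed as well. In replicates 1 and 2 it was 9.73 and 5.73 at Prx, but 1.20 and 1.10 upstream of Sox10. Whether the footprinted share follows that density was not tested.

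6 of the 8 genes had a promoter peak, meaning a peak within 500 bp of an annotated start, in both libraries, and 2 had none in either. The 6 were Egr2, Prx, Pmp22, Mbp, Erbb3 and S100b, and the 2 without were Sox10 and Cdh19. The share of 75.0% lies beside 65.2% of all protein-coding genes, so as a count the members were close to the background. They were not close to each other. To follow the same site in both libraries, peaks were paired, where a pair is 1 peak of each library that are each other's best overlap. On a rank scale from 0 (weakest peak of a library) to 100 (strongest), the strongest promoter pair of each gene ran from 54.6 ± 2.37 at Mbp to 98.2 ± 0.0869 at Prx (SD, n = 2 libraries). In descending order of mean rank they were Prx, Egr2, Pmp22, S100b, Erbb3 and Mbp. The neighbours Egr2 (93.7 ± 2.76) and Pmp22 (91.3 ± 1.29) lay within their combined spread, as did Erbb3 (55.7 ± 6.77) and Mbp. Within each library, Egr2 ranked above Pmp22 (91.8 and 95.7 against 90.3 and 92.2). The order of Erbb3 and Mbp differed between the libraries (51.0 and 60.5 against 52.9 and 56.3). S100b (75.2 ± 4.18) stood apart from the genes on either side of it.

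Counted at the most upstream start of each gene alone, 5 members had a promoter peak in both libraries, because Prx dropped out, against 59.5% of all protein-coding genes. With the shorter peak list deposited for each library, Erbb3 dropped out in replicate 1 and the count was also 5.

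**Figure D1:**
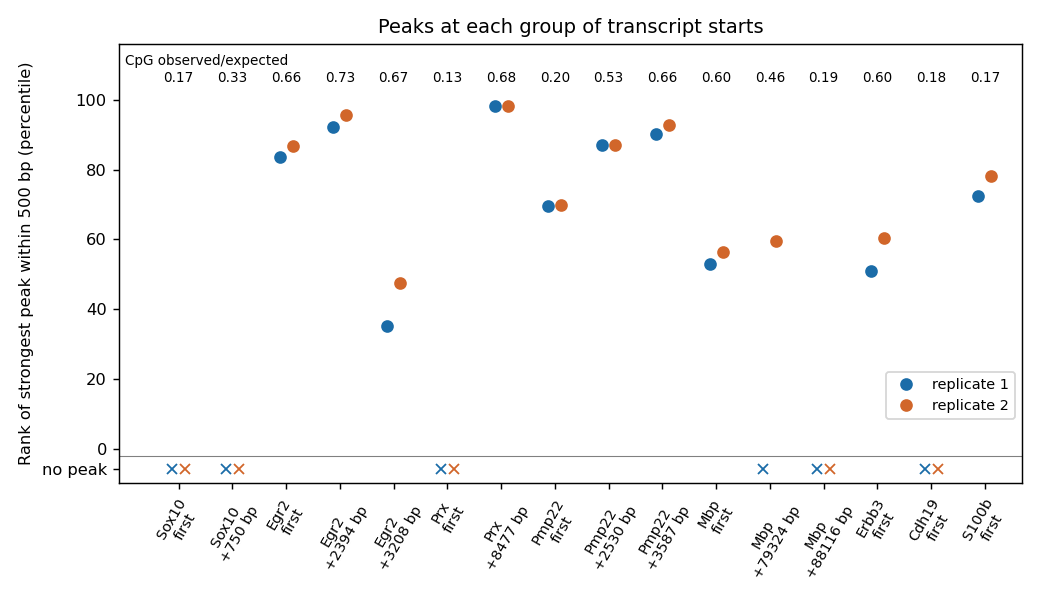
Rank of each library's strongest peak within 500 bp of each group of annotated starts of the 8 genes, which need not be the same peak in both libraries (vertical axis, percentile within the library, 0 weakest, 100 strongest; crosses, no peak), with replicate 1 in blue and replicate 2 in orange; each group is named by its distance from the most upstream start, and the numbers above give its ratio of observed to expected CpG. Sox10, Cdh19 and the first start of Prx have no peak in either library, whereas the downstream start of Prx lies at 98.1 and 98.2.

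Of the transcription factors, Sox10 (chr15:79154908-79165240, minus strand), the factor that defines the glial lineage of the neural crest, had no peak anywhere in its gene. All 4 annotated starts were without one in both libraries. The deposited per-base list, which holds stretches with a false discovery rate (FDR) up to 0.05, had 0 entries within 500 bp of any Sox10 start in either library. The first start lies in CpG-poor DNA (observed over expected CpG 0.166 in the 1 kb around it), a class in which 5.52% of protein-coding genes had a peak in both libraries. The other 3 starts, 750 bp downstream, have a ratio of 0.325, a class with 32.1%.

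The surroundings of Sox10 were not empty. It had 11 peaks within 50 kb in replicate 1 and 16 in replicate 2, and 10 pairs. The strongest pair was the promoter of Polr2f, which encodes a subunit shared by the RNA polymerases, and of its neighbour 1700088E04Rik, 23939 bp downstream of the Sox10 start, at rank 95.1 ± 1.94. An intron of Polr2f, 16479 bp downstream, held the next, at rank 89.9 ± 2.32. Both of these lie in a gene that every cell type uses, and which gene the intron site acts on was not tested.

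Upstream of Sox10, where enhancers of the gene are known, 5 pairs lay in introns of the noncoding gene Gm10863, from 27355 to 45301 bp before the Sox10 start. The strongest, chr15:79193161-79193360, 28021 bp before it, is the region printed above. Its cut density was 1.20 in replicate 1 and 1.10 in replicate 2, and its rank 63.4 and 77.8, or 70.6 ± 10.1. It held 2 footprints in replicate 1 and 5 in replicate 2. Its ranks differed more between the libraries than those of the strongest promoter pair of any of the 8 genes. Other pairs of the members differed more still, such as those 13471 bp before Pmp22 (SD 13.7) and 37209 bp before Erbb3 (SD 13.5). The other 4 pairs upstream of Sox10 ranked from 42.5 to 56.3.

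Egr2 (chr10:67535475-67542188, plus strand), the zinc finger factor also called Krox20, without which Schwann cells stop before myelination, carried most of its peaks in the gene itself. 8 peaks lay in its promoters in replicate 1 and 7 in replicate 2, some of them overlapping each other in the same list. Of 8 pairs within 50 kb, 6 were in the gene or its promoters. The strongest of those was the printed promoter region, 2286 bp from the most upstream start and just before a group of 3 starts at 67537869 to 67537930. Its density was 4.76 at rank 91.8 in replicate 1 and 4.02 at rank 95.7 in replicate 2. The pair before it, chr10:67537461-67537580, had 4.91 at rank 92.1 and 3.30 at rank 94.1, so the highest Egr2 peak was a different one in each library.

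All 3 groups of Egr2 starts lie in DNA of a CpG class in which 94.0% of protein-coding genes had a peak in both libraries (ratios 0.664, 0.731 and 0.675). The first group had ranks of 83.7 and 86.7, and the third, 3208 bp downstream, only 35.1 and 47.4. Beyond the gene the peaks thinned out. A pair at the promoter of Ado, a thiol dioxygenase gene 13626 bp downstream, had rank 91.8 ± 3.00, and a second pair 14146 bp downstream had 82.7 ± 4.94. Past these, only replicate 2 had a peak, 80 bp wide and 30786 bp downstream, at rank 29.7. The long stretch downstream of Egr2 is where the enhancer for its use in myelinating Schwann cells is known to lie.

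Erbb3 (chr10:128567523-128589652, minus strand), the neuregulin receptor chain that Schwann cell precursors need to survive, had a weak promoter peak, close to that of Mbp. Its density was 0.891 in replicate 1 and 0.643 in replicate 2, at ranks 51.0 and 60.5. The promoter is CpG-rich (ratio 0.60), in a class where 88.4% of protein-coding genes had a peak in both libraries. A stronger pair lay just upstream, chr10:128590261-128590640, 799 bp before the start, at rank 78.9 ± 3.43. It held 3 footprints in replicate 1 and 10 in replicate 2.

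No pair lay inside the Erbb3 gene. Replicate 2 alone had 2 intron peaks, at ranks 31.7 (1387 bp into the gene) and 69.5 (5761 bp into it). The strongest pairs within 50 kb belonged to other genes: the promoter of Pa2g4, a growth regulator whose protein binds ErbB3, at rank 98.5 ± 0.379, that of the ribosomal protein gene Rpl41 at 93.7 ± 1.70, and that of Zc3h10 at 93.0 ± 1.24. In total 6 of the 10 pairs near Erbb3 were promoters of other genes.

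Prx (chr7:27499324-27520214, plus strand), which encodes periaxin, the scaffold that links the outer surface of the myelin sheath to the basal lamina, had the strongest promoter peak. Its density was 9.73 in replicate 1 and 5.73 in replicate 2. It lay at the downstream starts, 27507801 and 27507806, which are 8477 bp into the gene and whose strongest peak also falls at a start of the noncoding gene Gm15541. The CpG ratio there was 0.683. The most upstream start, with a ratio of 0.133, had no peak in either library. Periaxin is also made in lens and endothelium, and which cells carried the peak was not tested.

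The neighbourhood of Prx held the most pairs of the 8 genes, 17, from 30 peaks in replicate 1, as many as or more than at 98.5% of protein-coding genes, and 20 in replicate 2. Only 3 of the 17 pairs were in the gene or its promoters. The 2 strongest were the promoters of Sertad3 (99.9 ± 0.0159) and Sertad1 (99.7 ± 0.0459), genes of a family of cell cycle and transcription cofactors, and an intron of Sertad3 followed at 99.4 ± 0.121. The excess of replicate 1 came from weak peaks: 9 of its 13 peaks without a counterpart lay in Pld3 and its promoters, from 33043 to 42300 bp downstream of the first Prx start, at ranks of 4.32 to 21.1.

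Pmp22 (chr11:63128982-63159547, plus strand), the gene of a compact myelin protein whose dosage sets the health of the sheath, was open at each of its 3 groups of starts. The first, at 63128982, lies in CpG-poor DNA (ratio 0.195, a class with 12.2% of protein-coding genes open in both libraries). The pair over it had ranks of 69.6 and 68.9, and a second pair, which reaches within 500 bp of it with its centre 525 bp downstream, had 59.6 and 69.9. The pair over the next group, 2530 bp downstream, had 87.0 and 86.9. The third group, 3587 bp downstream, had a pair at 88.4 and 92.9 and another at 90.3 and 92.2. In both libraries the ranks of these pairs were higher at each later group. The first start of Pmp22 was therefore accessible where most starts of its CpG class were not.

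An intron pair of Pmp22, 1759 bp from the first start, had rank 90.5 ± 1.35, and a pair 2981 bp before it had 82.8 ± 0.399. With 11 of 15 pairs in the gene or its promoters, Pmp22 was the member with the most accessible regions of its own. Replicate 2 added 12 peaks without a counterpart, 7 of them at ranks of 4.24 to 22.5 in the noncoding gene B430319H21Rik.

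Mbp (chr18:82475146-82585637, plus strand) makes the basic protein that compacts the cytoplasmic faces of myelin from starts deep in a long gene, while its upstream starts give the golli transcripts, which are also used in immune cells. The upstream group of 4 starts had a peak in both libraries, at ranks 52.9 and 56.3. The group of 7 starts 79324 bp downstream had none in replicate 1 and a peak of rank 59.6 in replicate 2. A further start, 88116 bp downstream, had none in either library. The shared promoter peak of Mbp therefore belongs to its upstream starts.

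2 pairs in a late intron of Mbp were stronger than either promoter peak. The one 93915 bp from the first start had rank 89.6 ± 3.05 and densities of 3.36 and 2.61, and the one 92745 bp from it had rank 78.7 ± 2.42. The first of them holds 2 matches to the word of CTCF, a factor that anchors chromatin loops, both footprinted in both libraries. An intron pair at 51175 bp went against the general ratio of the libraries, with a density of 0.979 in replicate 1 and 1.66 in replicate 2, and ranks of 55.1 and 85.9 (70.5 ± 21.7). It also holds a CTCF word footprinted in both libraries. Of the 7 pairs near Mbp, 4 were in the gene or its upstream promoter and 3 were intergenic.

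S100b (chr10:76253853-76261159, plus strand), the calcium-binding protein used to stain Schwann cells over the neuromuscular junction, had a promoter peak with densities of 1.58 and 1.12 and ranks of 72.3 and 78.2. Its single start is CpG-poor (ratio 0.169). In the second lowest of 10 classes of CpG ratio it keeps company with the first start of Sox10 and the first start of Prx. In that class 5.52% of protein-coding genes had a peak in both libraries. Of these 3, S100b alone had a peak. An intron pair 4363 bp into the gene had rank 57.4 ± 1.59 and holds the SOX word, with no footprint over it in either library. The strongest pair within 50 kb was the promoter of Prmt2, an arginine methyltransferase gene 15972 bp upstream, at rank 92.7 ± 1.68.

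Cdh19 (chr1:110888326-110977584, minus strand), a cadherin known from Schwann cell precursors, had no peak within 50 kb of its starts in either library. That holds for 5.52% of all protein-coding genes. The per-base FDR list had 4 short stretches of 42 bases in all in that window in replicate 1, with a lowest FDR of 0.0364, and 0 in replicate 2. Its starts are CpG-poor (ratio 0.185, a class with 12.2%). Cdh19 was the member with the fewest peaks, against a median over the 8 genes of 12.5 in replicate 1 and 15.5 in replicate 2 and over all protein-coding genes of 7 and 9.

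**Figure D2:**
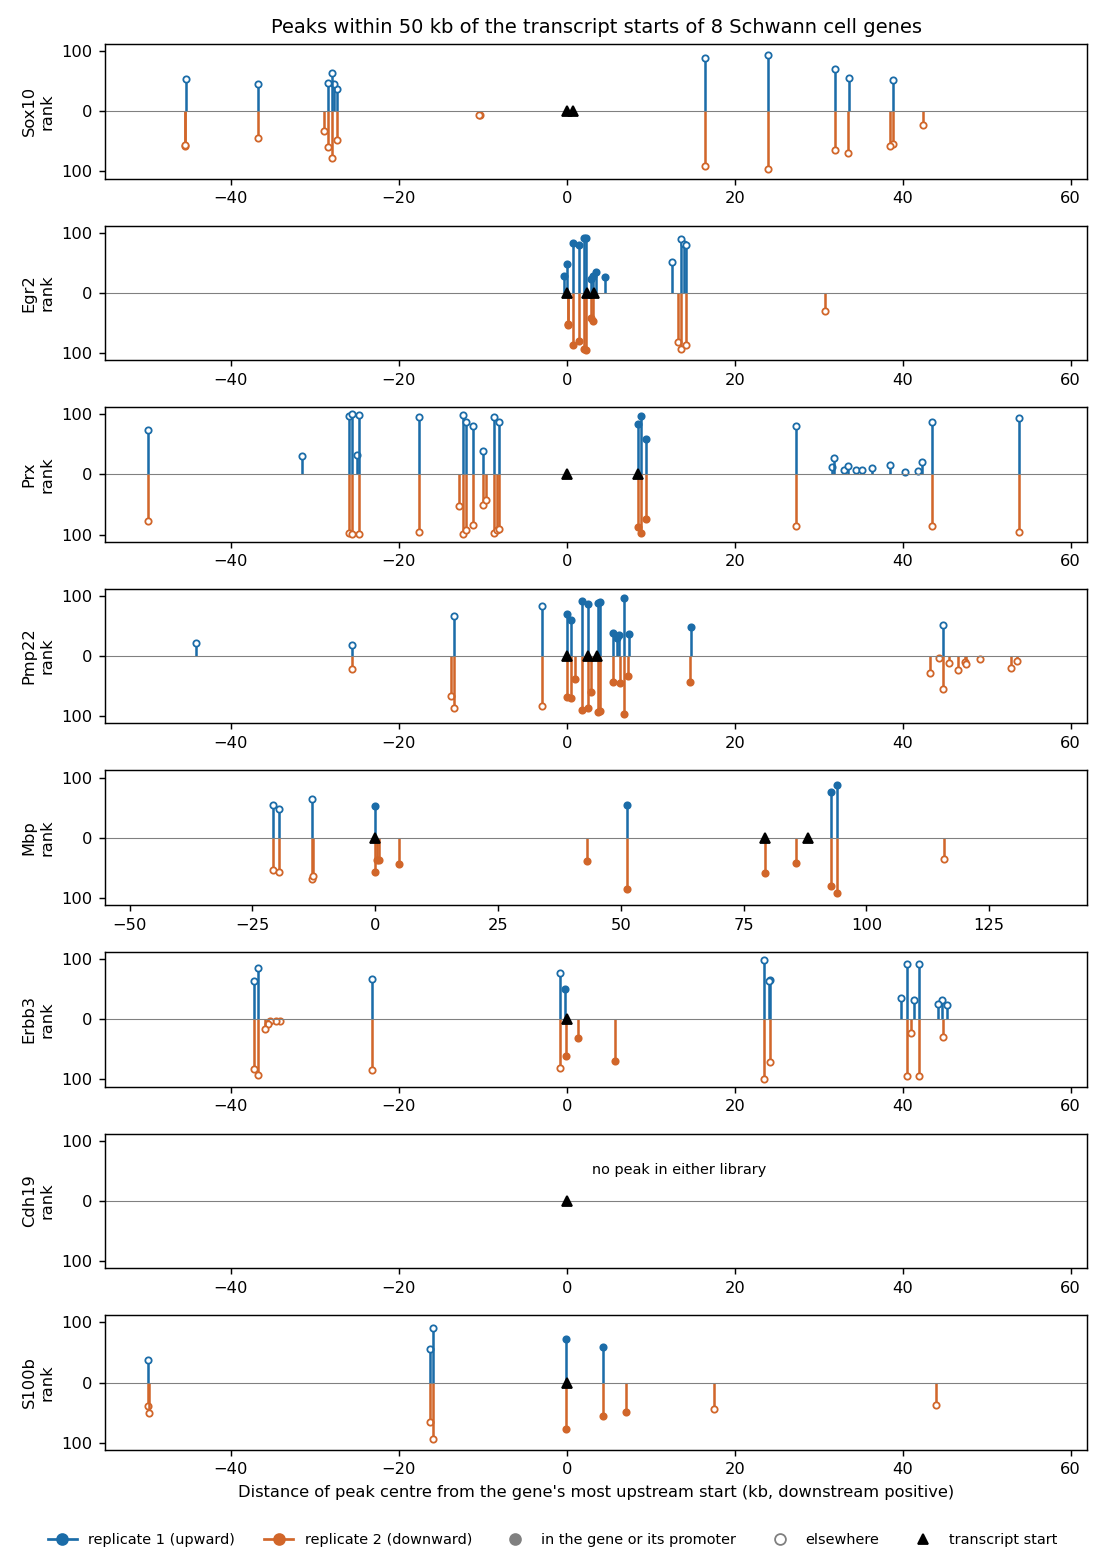
Every peak within 50 kb of a start of each gene, by distance of its centre from the gene's most upstream start (horizontal axis, kb, downstream positive) and rank in its library (0 to 100, replicate 1 upward in blue, replicate 2 downward in orange); filled points lie in the gene or its promoter, open points elsewhere, triangles are transcript starts. In each library the strongest peaks of Egr2, Pmp22 and Mbp lie in the gene or its promoter. Those of Sox10, Prx, Erbb3 and S100b lie at neighbours, and Cdh19 has none.

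Over all 8 genes, 75 of the 99 peaks in replicate 1 touched one in replicate 2 (75.8%, beside 79.6% of all its peaks), and 75 of the 117 in replicate 2 touched one in replicate 1 (64.1%, beside 60.8%). The sharing was thus close to that of the whole libraries in both directions. Peaks without a counterpart had a median rank of 24.6 in replicate 1 (range 4.32 to 81.0) and 34.7 in replicate 2 (range 2.56 to 93.0), against medians of 72.3 and 81.3 for the shared ones. The highest of them were at the Ado promoter and upstream of Prx.

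The shared peaks made 72 pairs out of 73156. Placed by their centres, 13 were in a member's own promoters, 13 in its introns and 1 in an exon. With the 2 intron pairs, at Egr2 and Pmp22, that reach within 500 bp of a start without having their centre there, 15 touched an own promoter. Another 19 lay in the promoter of another gene, 9 in an intron and 4 in an exon of another gene, and 13 were intergenic. 27 of the 72 pairs were therefore in the member or its promoters. The median of the pairs' mean ranks was 77.6, with a range of 19.6 to 99.9, against 64.0 for all pairs. By gene, the median was 59.3 at Sox10 and 60.7 at S100b, both below that of all pairs. It was 66.8 at Mbp, 69.3 at Pmp22, 77.3 at Erbb3, 84.0 at Egr2 and 89.5 at Prx. Prx alone gave 17 of the 72 pairs. More of the members' pairs lay in promoters, 44.4% against 31.5%, and their GC content was higher, with a median of 60.6% against 57.1%. Split by place, the median rank was 89.3 against 83.2 in promoters and 69.2 against 56.7 outside them. Of the 32 pairs in promoters, 19 were in promoters of other genes, with a median rank of 91.8 against 86.1 for the members' own.

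Cut densities were higher in replicate 1 at 68 of the 72 pairs, as they were at 91.9% of all pairs. The median ratio of replicate 1 to replicate 2 was 1.49, with an SD of 0.0763 over the 7 genes that had pairs, against 1.41 for all pairs. The 4 exceptions were the Mbp intron pair at 51175 bp, a pair 13471 bp before Pmp22 and 2 pairs upstream of Erbb3, at 23189 and 37209 bp. Densities are on the authors' own scale, whose smallest step was 2.03 times as large in replicate 1 as in replicate 2, so the ratio cannot be read as a difference between the tissue samples.

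**Figure D3:**
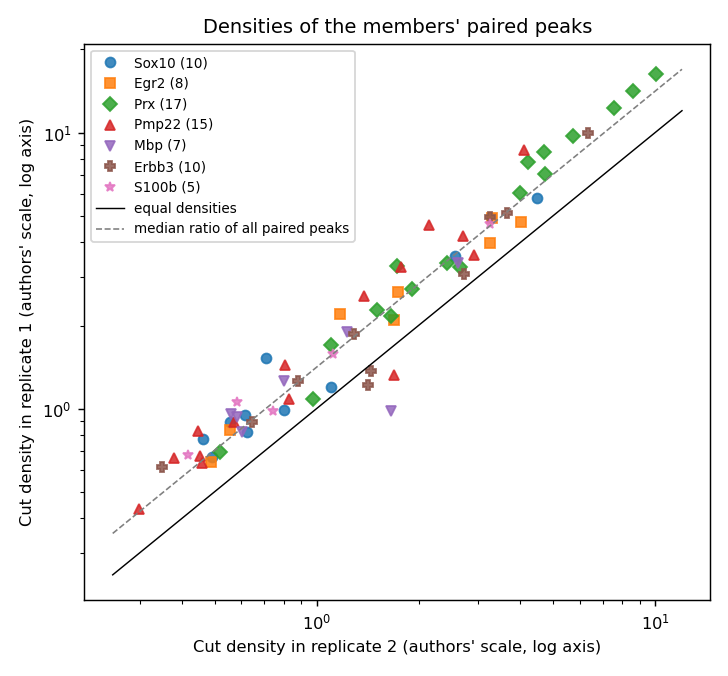
Cut density of the 72 paired peaks in replicate 2 (horizontal) and replicate 1 (vertical), both on the authors' scale and log axes, with 1 symbol per gene; the solid line marks equal densities and the dashed line the median ratio of all pairs, 1.41. The pairs follow the dashed line, and 4 lie below the solid one.

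A footprint was present in both libraries in 62 of the 72 pairs, or 86.1%, against 83.4% of all pairs. The members' peaks held 218 footprints in replicate 1 and 321 in replicate 2, with a median of 2 and 3 per pair, the same medians as over all pairs. By gene the count of pairs with a footprint in both ran from 4 of 5 at S100b and 8 of 10 at Sox10 to 14 of 15 at Pmp22.

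Short sequence words known for the factors of this lineage were then looked up, on both strands, in the stretch that both peaks of a pair share. The words were ACAAAG or ACAATG for SOX proteins, GCGNGGGCG for EGR proteins and GGAATG for TEAD proteins, which act with Yap1 and Wwtr1 in Schwann cells. A match is only a description of the letters, and it was counted as footprinted where a footprint touched it by 1 base or more. SOX words were in 5 of the 72 pairs (6.94%, against 13.8% of all pairs), EGR words in 5 (6.94%, against 3.89%) and TEAD words in 4 (5.56%, against 9.52%). In a footprint in both libraries there was a SOX word in 1 pair (1.39%, against 1.81%), an EGR word in 2 (2.78%, against 1.89%) and a TEAD word in 1 (1.39%, against 1.54%). Counts of 1 or 2 pairs are too small to be set apart from the background.

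The number of matches footprinted in both libraries was 4. It was 2 where the footprint had to cover the whole match, and 8 where replicate 1 was left out and replicate 2 alone decided. The 4 are shown with 10 bases on either side, from the plus strand of GRCm38.p6, with the word in capitals; on the minus strand the word reads as its reverse complement.
EGR, Prx promoter, chr7:27508260-27508268: ccggggcctgGCGGGGGCGtggcggagtg
EGR, upstream of Prx, chr7:27490622-27490630: tgtctgcggcCGCCCCCGCggtccagctg
TEAD, Micall1 promoter near Sox10, chr15:79131631-79131636: ttggaaggctGGAATGgccccaagtc
SOX, Rps26 promoter near Erbb3, chr10:128626858-128626863: aaaagagatgCATTGTgggagttgta
Only the first lies in a member's own promoter. It is inside the printed Prx region, at rank 98.2, 8940 bp from the first Prx start. The second lies in an intergenic pair 8698 bp before that start, at rank 96.3. The other two are in promoters of neighbours, at ranks of 62.2 and 73.6.

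The printed region upstream of Sox10 holds 2 SOX words. The one at its left end was in a footprint in replicate 2 and not in replicate 1, and the one near its right end in neither. The next pair, centred 28415 bp before the start, holds a TEAD word footprinted in replicate 2 only. The Erbb3 region 799 bp before the start holds an EGR and a TEAD word, neither of them footprinted in either library.

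Of the other words searched, the E-box CAGCTG, which muscle and glial bHLH factors share, was in 15 pairs (20.8%, against 21.8%) and the core word of CTCF in 8 (11.1%, against 10.9%), footprinted in both libraries in 5 (6.94%, against 9.39%). The AP-1 word TGANTCA was in 5 pairs (6.94%, against 5.02%) and footprinted in both libraries in 0 (against 0.522%). A loose form of the MEF2 word, with any letters allowed in its middle, was in 2 pairs (2.78%, against 1.66%). In 1 of them it was footprinted in both libraries (1.39%, against 0.347%), at the Sertad1 promoter near Prx. Both matches hold a G in that middle, so neither is read here as a MEF2 site. The octamer ATGCAAAT, which POU factors such as Pou3f1 read, was in 2 pairs (2.78%, against 0.580%), both at Egr2. One of them is in the printed promoter and was footprinted in replicate 2 only. These counts, too, are too small to be set apart from the background. No pair held the palindromic NFI word, the CRE word TGACGTCA or a facing SOX pair (ACAA and then TTGT, 4 to 8 bases apart). Over all pairs their shares were also low, at 0.116%, 0.965% and 0.715%. The absence says only that these letters are not in these windows.

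The CArG box, the site of serum response factor, was added after the printed sequences had been seen. It was in 3 pairs (4.17%, against 0.630% of all pairs), 2 at Egr2 and 1 at Prx. In the printed Egr2 promoter a footprint touched it in both libraries, which 0.144% of all pairs showed for this word. Only the last base of the box is in the stretch protected in both, so the box itself lay almost wholly outside it.
Egr2 CArG box, chr10:67537797-67537806: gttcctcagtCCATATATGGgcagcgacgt
The immediate early use of Egr2 is known to run through such sites. Since the word was picked from the sequence, its share supports nothing further.

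**Figure D4:**
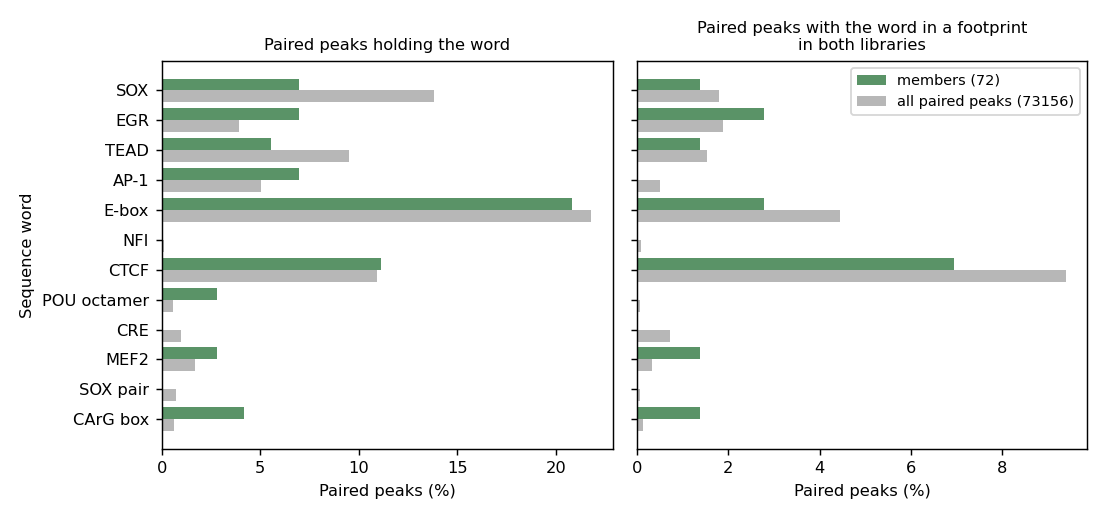
Share of paired peaks (horizontal axis, percent) that hold each sequence word (left) and that hold it in a footprint in both libraries (right), for the 72 pairs of the 8 genes (green) and all 73156 pairs (grey). E-box words are the most frequent in both sets and CTCF words the most frequent in footprints, and SOX words are in 6.94% of the members' pairs and 13.8% of all pairs.

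44 related genes of the same biology were set beside the 8, in 4 lists, by the rank of each library's strongest promoter peak. 37 of the 44 had a promoter peak in both libraries (84.1%, beside 65.2% of all protein-coding genes), 5 in neither and 2 in 1 library. The lists were chosen with earlier results of these data known, so the counts describe these libraries only.

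All 14 transcription factors and cofactors were open at a promoter in both. The highest were the broadly used Yy1 (99.3 and 99.5) and Jun (99.0 and 99.0), the second of which drives the repair state of injured Schwann cells. Of the 12 signals and receptors 11 were, led by Dag1, the dystroglycan gene of muscle and Schwann cell basal lamina contacts (100 and 99.8), and the integrin chain Itgb1 (99.0 and 98.4). Nrg1, the axonal growth factor read by ErbB3, had 89.7 and 91.2, and Ngfr, the low-affinity neurotrophin receptor of immature Schwann cells, 72.6 and 73.5. Itgb4 had a peak in replicate 2 only, at 45.1. The leading genes of both lists are used in many tissues, muscle among them.

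The myelin and node genes were the list of these 4 with the lowest share of open promoters, 7 of 13 in both libraries (53.8%). Cnp, an enzyme of the uncompacted parts of the sheath, had ranks of 84.2 and 85.3. Neither library had a promoter peak at Mag, Cldn19, Pmp2 or Ncmap, and Gjb1 had one in replicate 1 only, at 9.66. All 5 genes of immature or non-myelinating Schwann cells had one in both, the highest at Ncam1 (92.6 and 91.5), which young muscle fibres also express, and Gfap (83.9 and 89.3).

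Markers of the other cells that use Sox10, Mbp or Erbb3 were read in the same way. Of 9 oligodendrocyte genes, 3 were open at a promoter in both libraries, the highest at Myrf (84.7 and 86.6) and Cldn11 (57.5 and 70.7), 4 in neither, among them the defining genes Mog and Mobp, and 2 in 1 library. Of 7 melanocyte genes, 3 were, led by Pmel (97.1 and 96.5), whose peak also lies at a start of the cell cycle gene Cdk2, and Mitf (92.0 and 93.9), while 4 had none, Tyr and Tyrp1 among them. All 8 muscle genes, markers of the labelled tissue, had one in both, the highest at Des (89.0 and 88.0) and Myod1 (86.1 and 84.6). The shares open in both libraries were 33.3% for oligodendrocyte, 42.9% for melanocyte and 100% for muscle genes. They lie beside 65.2% of all protein-coding genes. What share these cell types have in the members' peaks was not tested.

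**Figure D5:**
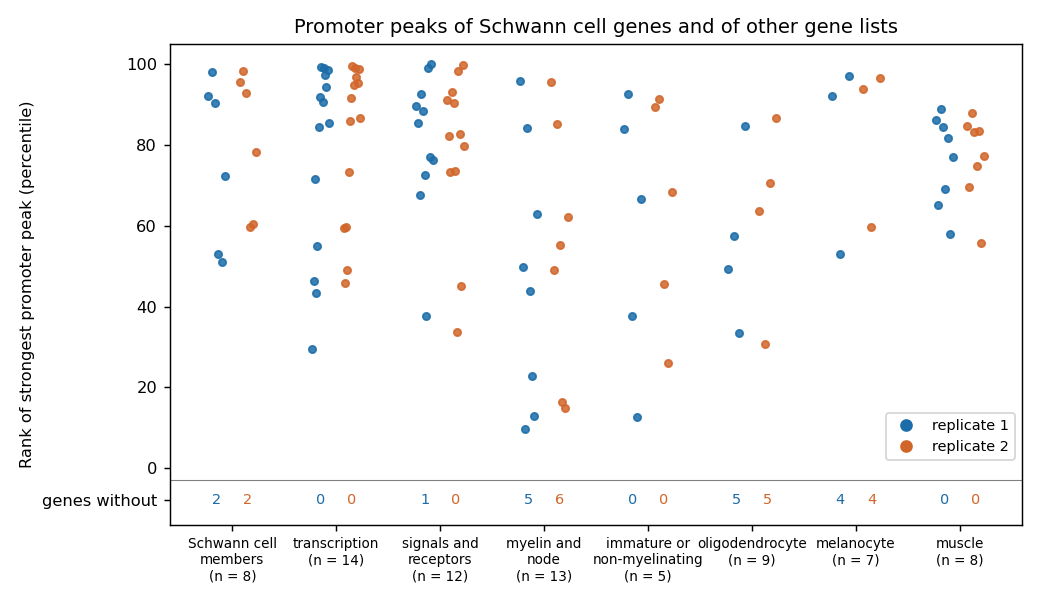
Rank of each gene's strongest promoter peak (vertical axis, percentile within the library) for the 8 Schwann cell genes, the 4 related lists, and oligodendrocyte, melanocyte and muscle markers, with replicate 1 in blue and replicate 2 in orange; the numbers under the line count genes without a promoter peak. The transcription list has none without, and the myelin and node list has 5 and 6.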

How the data were processed

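DNase-seq of 2 libraries (biological replicates 1 and 2 of 1 group) was read from the interval lists that were deposited for each library. Per the deposited file listings, each list was made from 1 library's alignment on mm10, so replicates were not pooled. Aligner, peak caller, thresholds: not given in the sources used here. Each deposited peak has a signal value, the density of cuts, on a scale of the authors that is not stated. The deposited FDR lists hold q-values per stretch of bases up to 0.05. The deposited footprint lists carry a score of 0.01 in every entry, which gives no strength.

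The longer peak list of each library was used. Peaks (99 and 117 near the 8 genes) were ranked by density within their list. Depth in reads is unknown, so no counting interval is given; the density step was 0.00675 in replicate 1 and 0.00333 in replicate 2, and 100% of densities under 1 were whole steps (tolerance 0.1 step). Genes and starts came from GENCODE M21 on GRCm38.p6. Starts within 500 bp of each other form a group. CpG ratios were taken 500 bp on either side of a start, and protein-coding genes were split into 10 classes by the ratio at their most upstream start. Peaks can overlap others of their list (1.16% and 1.89%). The sequence searched is that of C57BL/6J, and the CAST genome of the mice was not used. Python 3.11.15, numpy 2.4.6, pysam 0.24.0, bedtools 2.31.1 and samtools 1.23.1 were used, and the pairing was tested on simulated intervals.

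The 8 genes, the related lists and the rule for naming were chosen with earlier results of these data known. The rule named all 8 genes, their promoter peaks, the 3 strongest shared peaks of each outside its promoters, each footprinted SOX, EGR or TEAD match and, of each list, the 2 genes of highest promoter rank, up to 2 without a promoter peak, and Ngfr and Nrg1 always. 1 region and some list genes that the rule names are not reported here. Other peaks, list genes and the CArG box were named after their values were seen. The labels call the libraries biological replicates, with 3 males named in each and 1 donor entry for both. Whether they are separate animals or pools is not stated, so an SD of 2 libraries measures only their spread, which may be technical.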

Additional observations from a re-analysis of the deposited data

How the results depend on the processing

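8 results were recomputed under 55 alternatives. 45 stayed within the spread between the libraries or within 1.5 times the count, and 10 moved. The number of peaks within 50 kb, 108 as the mean of the libraries, was 70.5 with the shorter peak lists, 58 within 20 kb and 172.5 within 100 kb. The 72 pairs became 44 within 20 kb and 119 within 100 kb, and the 62 with a footprint in both libraries became 39 and 100. The 4 footprinted SOX, EGR and TEAD matches became 2 within 20 kb and 2 where the footprint had to cover the match. These shifts follow from the size of the window, the shorter list or the stricter rule. Without replicate 1 the number of footprinted matches was 8 and without replicate 2 it was 4. Leaving out a library gave 99 to 117 peaks, 6 promoters in both cases, a median rank of 75.3 to 82.8, 65 to 66 pairs with a footprint and 38 of the 44 related genes. No paired analysis was possible because there is only 1 group. What depth limits cannot be stated in reads: replicate 1 has fewer peaks and footprints, and a region called only in replicate 2, such as the downstream Mbp starts, has no value in replicate 1.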
